A study of Homo sapiens with 12 samples.

Results

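The zinc-finger cluster at 19p13.2 holds ZNF266 and its neighbours on human chromosome 19. Its members were taken from a list of 35 ZNF genes of that band and its edge, all of which were present among the 18969 genes of the tables. The genes described are those with at least 1 CPM (counts scaled to library depth, here expected counts) in at least 4 of the 12 libraries, which gave 21 of 35. In the RefSeq gene order the listed genes form 2 runs, here called the ZNF266 block (ZNF317 to ZNF846, 11 listed and 9 described) and the ZNF44 block (ZNF627 to ZNF791, 24 listed and 12 described).

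RNA was sequenced in HCT116, an established human colorectal carcinoma line, in 3 groups of 4 libraries. Cells of the UNC0642 group were kept 24 h in methionine-free medium with UNC0642, an inhibitor of the histone H3 lysine 9 methyltransferases EHMT1 (GLP) and EHMT2 (G9a), and then 24 h in methionine-replete medium with no inhibitor. The DMSO group went through the same restriction and recovery with the vehicle DMSO. The group labelled 0 h has no stated recovery, and the labels do not say whether it was taken before or after the restriction. The inhibitor's dose is not given in the sources used here, and the labels do not tell separate cultures from repeat libraries of 1 culture, so each p-value covers only the spread among these libraries, which may be technical.

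KRAB zinc-finger proteins bind DNA through a row of C2H2 fingers and recruit the corepressor TRIM28 (KAP1) through their KRAB domain. TRIM28 brings in the methyltransferase SETDB1, which places trimethyl marks on lysine 9 of histone H3. Most such genes of chromosome 19 arose by tandem duplication and stand in clusters, and the finger exons of these clusters are known to carry the same mark themselves. EHMT1 and EHMT2 place the mono- and dimethyl marks on that lysine, with S-adenosylmethionine, made from methionine, as the methyl donor. The DNA targets of most members of the 19p13.2 cluster are little known.

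The repeat that makes these genes a family is shown by 1 finger unit of 84 bases from the coding sequence of 3 members, from the GENCODE transcripts of GRCh38 on the minus strand, at chr19:9414139-9414222 for ZNF266, chr19:9529055-9529138 for ZNF426 and chr19:12431431-12431514 for ZNF443. Capitals mark the conserved linker between fingers, a string of 14 letters in which 4 positions were free.
ZNF266: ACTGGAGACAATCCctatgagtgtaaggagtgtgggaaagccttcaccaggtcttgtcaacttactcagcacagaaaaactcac
ZNF426: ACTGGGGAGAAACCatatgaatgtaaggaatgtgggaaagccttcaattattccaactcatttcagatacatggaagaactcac
ZNF443: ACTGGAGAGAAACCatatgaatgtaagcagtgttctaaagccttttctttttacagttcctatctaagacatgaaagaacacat
The linker was found at least 5 times in a transcript of 17 of the 21 described genes, against 1.41% of 19669 coding genes. Its number ran from 2 to 13 with a median of 6. ZNF443 and ZNF799, neighbours in the ZNF44 block, had a longest identical run of 180 bases. Of the 50-base stretches of ZNF443, 29.5% were also present in ZNF799, and 16% of those of ZNF799 were present in ZNF443. Their estimated counts were not whole in 11 of 12 libraries each, so how reads were split between this pair is uncertain. Estimated counts were not whole in 12 of 12 libraries for ZNF562 and ZNF490 either. ZNF564 shared 67% of its 50-base stretches with other annotated genes and ZNF490 60.4%, against 37.7% for ZNF443 and 24% for ZNF799. These shares are of GRCh38 transcripts, not of the build of the counts, and the genes that share the stretches were not examined. Some reads of ZNF490 and ZNF562 were thus also split, and how far this affects their levels was not tested. ZNF562 shared 3.94% of its 50-base stretches with other annotated genes. Counts of ZNF564 were not whole in only 2 of 12 libraries.

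The second set of sequences is shown because 1 letter string recurred in the promoters of the ZNF266 block. RefSeq promoters (GRCh38.p14, 250 bases before to 50 after the start) were given for 20 of the 21 described genes, and ZNF559 was the exception. The letters TGACGTCA, the cyclic AMP response element bound by CREB and ATF proteins, read the same on both strands. They were present in 5 of the 20 promoters, all of the ZNF266 block (5 of 8 there), against 3.23% of the 9167 promoters of tested genes and 2 of 170 promoters of other ZNF genes of chromosome 19. The runs below cover 110 bases before to 10 after the start of the 5 genes, with TGACGTCA in capitals, and of 2 genes of the block whose promoters lack it. They lie on the minus strand at chr19:9435564-9435683 (ZNF266), chr19:9538636-9538755 (ZNF426), chr19:9584495-9584614 (ZNF121), chr19:9621223-9621342 (ZNF561), chr19:9675091-9675210 (ZNF562) and chr19:9498607-9498726 (ZNF560), and on the plus strand at chr19:9140287-9140406 (ZNF317).
ZNF266: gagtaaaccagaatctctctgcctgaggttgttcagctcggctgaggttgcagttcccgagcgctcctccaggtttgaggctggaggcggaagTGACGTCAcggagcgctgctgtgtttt
ZNF426: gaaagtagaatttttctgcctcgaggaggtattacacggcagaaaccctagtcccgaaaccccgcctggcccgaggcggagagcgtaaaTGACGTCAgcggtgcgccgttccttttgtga
ZNF121: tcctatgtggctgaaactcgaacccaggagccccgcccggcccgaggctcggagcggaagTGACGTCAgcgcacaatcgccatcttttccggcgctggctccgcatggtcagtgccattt
ZNF561: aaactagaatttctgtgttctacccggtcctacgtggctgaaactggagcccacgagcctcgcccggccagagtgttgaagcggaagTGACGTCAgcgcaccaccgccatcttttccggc
ZNF562: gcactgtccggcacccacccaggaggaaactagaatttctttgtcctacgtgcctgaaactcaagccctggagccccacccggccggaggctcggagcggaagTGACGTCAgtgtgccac
ZNF560: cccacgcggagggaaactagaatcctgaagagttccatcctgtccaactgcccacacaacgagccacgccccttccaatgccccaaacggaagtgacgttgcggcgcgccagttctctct
ZNF317: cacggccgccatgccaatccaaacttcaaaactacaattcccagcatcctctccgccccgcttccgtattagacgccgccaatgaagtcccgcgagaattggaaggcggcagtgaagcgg
The first base of the string lay 17 bases before the start in ZNF266, 21 in ZNF426, 50 in ZNF121, 23 in ZNF561 and 7 in ZNF562. Of the 9 strings searched on both strands, the GC box GGGCGG was present in 16 of the 20 promoters (70.8% of promoters of tested genes), CCAAT in 13 (36.7%) and the YY1-like AAGATGGC in 3, those of ZNF121, ZNF561 and ZNF562 (5.48%). The ETS-like CCGGAAG was present in ZNF177 (18.7%), the NRF1-like string in ZNF699 (2.18%) and the ZNF143-like string in ZNF317 (0.567%). TATAAA (5.41%) and the BANP-like string (0.938%) were present in none. No match overlapped one of another string, and a match is only a match of letters. Only exact strings were counted. The letters gcggaag, 1 letter off the ETS-like string, stand directly before TGACGTCA in ZNF266, ZNF121, ZNF561 and ZNF562. ZNF560, which lacks TGACGTCA, reads acggaag followed by tgacgttg. Whether the 5 matches of TGACGTCA arose separately or were copied with the genes by tandem duplication was not tested. The described promoters held a median of 18 CpG dinucleotides in 300 bases, against 26 in promoters of all tested genes.

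Estimated counts summed to between 14658108 and 20179879 per library, and 12741 genes had enough counts to be tested. The libraries fell into 2 technical classes by how far effective length fell short of gene length (5 of 101.3 to 106.0 bases, here short-gap, and 7 of 119.9 to 126.8 bases, here long-gap), and each group held both. The 9 colon epithelial markers summed to 5574 to 5790 CPM in UNC0642 libraries, 5559 to 5710 in DMSO libraries and 4936 to 5051 in 0 h libraries, where VIL1 was at 0. KRT8, KRT18 and KRT19 made up most of these sums, at means of 2922, 1357 and 1026 CPM in UNC0642 libraries. Of the 9 markers, KRT20 rose with UNC0642 against DMSO (edgeR adjusted p = 0.00545). It averaged 1.13 ± 0.195 CPM in UNC0642 and 0.38 ± 0.234 CPM in DMSO libraries (SD, n = 4 each). The other 6 of the 7 tested colon markers were not called. The median log2 fold change of the 7 was 0.0, with 3 values below 0 and 4 above. The 12 markers of blood, fibroblasts and endothelium summed to 28.2 to 37.1 CPM in UNC0642, 27.5 to 36.3 in DMSO and 21.3 to 44.8 in 0 h libraries. PTPRC was at 0 in the 0 h libraries and CDH5 in the 0 h and DMSO libraries. COL1A1 made up most of these sums, at 28.2 ± 1.97 CPM in UNC0642 and 23.3 ± 4.74 CPM in 0 h libraries (SD, n = 4 each). COL1A2 was above 1 CPM in 6 libraries, found in all groups.

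After UNC0642 and recovery, RNA of the cluster was lower than after DMSO and recovery. Of the 21 described genes, 15 fell and 0 rose, with a median log2 fold change of -0.42, and all 21 values were below 0. Over all 12741 tested genes 4.58% were called at an adjusted p under 0.05 (2.53% lower and 2.06% higher), and the median was 0.00. The summed level of the 21 genes was 258.9 to 265.0 CPM in UNC0642 libraries, 331.3 to 336.8 CPM in DMSO libraries and 330.9 to 345.8 CPM in 0 h libraries. CPM levels and sums, above and below, are scaled by TMM factors, which correct for composition. The limits of 1 CPM use library totals instead. The test is edgeR's quasi-likelihood test adjusted over all tested genes. In such bulk RNA, fewer cells of a type and less RNA per cell cannot be told apart.

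ZNF266 had 5.94, 6.85, 5.18 and 7.04 CPM in UNC0642 libraries, against 12.9, 10.2, 12.1 and 12.4 CPM in DMSO libraries and 11.7, 11.2, 12.3 and 14.4 CPM in 0 h libraries. Every UNC0642 library lay below every library of both other groups. The level was 1.91-fold lower in UNC0642 than in DMSO (log2 fold change -0.93 ± 0.11, SE, n = 4 per group; edgeR adjusted p = 1.9e-07) and 1.98-fold lower than at 0 h (-0.98 ± 0.11; edgeR adjusted p = 5.57e-09). DMSO against 0 h gave -0.05 ± 0.10 (95% interval -0.25 to 0.15), which was not called. The call held under all 24 alternative settings in both comparisons with UNC0642, with an adjusted p of at most 0.00076 against DMSO.

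ZNF426, reported as a repressor of a herpesvirus transactivator, had 0.594, 0.494, 0.423 and 0.440 CPM in UNC0642 libraries, against 1.27, 0.853, 1.24 and 1.57 CPM in DMSO libraries and 1.57, 1.97, 1.04 and 1.47 CPM in 0 h libraries. The UNC0642 libraries did not overlap the others. It was 2.52-fold lower in UNC0642 than in DMSO (-1.33 ± 0.32; edgeR adjusted p = 0.00886), the largest fold of the described genes. That fold rests on 8 to 12 counts per UNC0642 library and 14 to 32 per DMSO library. ZNF426 was included through the DMSO and 0 h libraries, since 0 of 4 UNC0642 libraries reached 1 CPM.

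ZNF177 and ZNF559 are neighbours that RefSeq also lists as 1 read-through transcript, whose reads cannot be told apart from theirs. ZNF177 had 0.594, 0.658, 0.793 and 1.43 CPM in UNC0642 libraries, against 2.70, 1.83, 1.18 and 1.62 CPM in DMSO libraries and 1.33, 1.63, 1.53 and 2.03 CPM in 0 h libraries. The highest UNC0642 library lay above the lowest of the other groups, and only 1 UNC0642 library reached 1 CPM. It was 2.12-fold lower in UNC0642 than in DMSO (-1.08 ± 0.29; edgeR adjusted p = 0.0242). ZNF559 had 6.43, 5.92, 5.76 and 5.28 CPM in UNC0642 libraries, against 8.04, 8.04, 9.56 and 8.78 CPM in DMSO libraries and 10.6, 13.0, 10.0 and 9.61 CPM in 0 h libraries. Its 3 groups did not overlap, in the order UNC0642, DMSO, 0 h from low to high. It was 1.47-fold lower in UNC0642 than in DMSO (-0.55 ± 0.11; edgeR adjusted p = 0.00161).

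**Figure D1:**
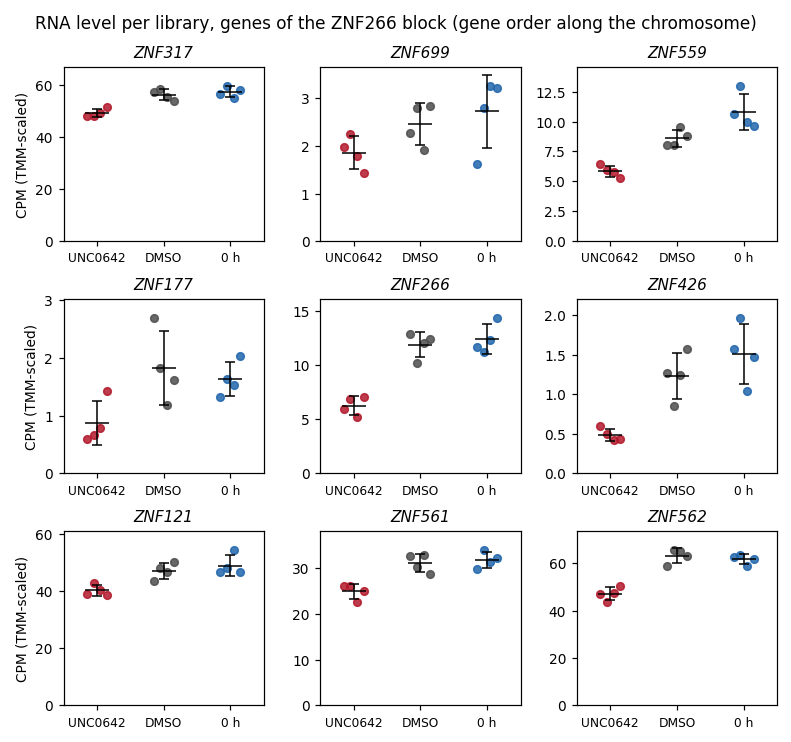
RNA level (CPM, TMM-scaled, linear axis from 0) of the 9 described genes of the ZNF266 block in each of the 12 libraries; points are libraries, and the bar and whiskers are the mean and SD of 4. The UNC0642 points lie below all DMSO points in 7 of the 9 panels, while those of ZNF699 and ZNF177 overlap.

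The most abundant genes per transcript length were in the ZNF266 block. Over the 12 libraries ZNF121 averaged 28.1 FPKM (fragments per kilobase of transcript, scaled to library depth), ZNF317 13.8 and ZNF562 10.1, and ZNF700 of the ZNF44 block followed at 8.12. ZNF121 had 39.0, 42.8, 40.4 and 38.7 CPM in UNC0642 libraries, against 43.6, 47.9, 46.5 and 50 CPM in DMSO libraries and 46.7, 48.1, 54.4 and 46.5 CPM in 0 h libraries. ZNF317 had 48.3, 48.2, 49.4 and 51.6 CPM in UNC0642 libraries, against 57.4, 58.5, 55.6 and 53.9 CPM in DMSO libraries and 56.8, 59.9, 55.1 and 58.4 CPM in 0 h libraries. Both had UNC0642 libraries below all others, by small amounts. ZNF121 was 1.17-fold lower in UNC0642 than in DMSO (-0.23 ± 0.05; edgeR adjusted p = 0.00868) and ZNF317 1.14-fold lower (-0.19 ± 0.04; edgeR adjusted p = 0.00681). ZNF562 had 47.0, 43.7, 47.4 and 50.5 CPM in UNC0642 libraries, against 58.8, 65.6, 65.0 and 63 CPM in DMSO libraries and 62.7, 63.6, 58.7 and 61.6 CPM in 0 h libraries. The UNC0642 libraries lay below all others, while the DMSO and 0 h libraries overlapped. ZNF562 was 1.34-fold lower in UNC0642 than in DMSO (-0.42 ± 0.05; edgeR adjusted p = 1.04e-07), the smallest p of the described genes. Its neighbour ZNF561 was 1.25-fold lower (-0.32 ± 0.06; edgeR adjusted p = 0.000727). ZNF699, in which variants cause a developmental syndrome, averaged 1.86 ± 0.343 CPM in UNC0642 and 2.46 ± 0.447 CPM in DMSO libraries (SD, n = 4 each), and its difference of -0.40 (95% interval -0.83 to 0.04) was not called. In the ZNF266 block 8 of 9 described genes thus fell.

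In the ZNF44 block, 7 of 12 described genes fell with UNC0642 against DMSO, and the median of -0.42 equalled that of the ZNF266 block. ZNF799 had 4.01, 2.36, 3.22 and 3.19 CPM in UNC0642 libraries, against 6.30, 5.06, 5.62 and 4.56 CPM in DMSO libraries and 4.59, 5.01, 4.38 and 4.49 CPM in 0 h libraries. The UNC0642 libraries were below all others, and the level was 1.67-fold lower in UNC0642 than in DMSO (-0.74 ± 0.15; edgeR adjusted p = 0.00168). Its near copy ZNF443 averaged 3.38 ± 0.516 CPM in UNC0642 and 4.50 ± 0.287 CPM in DMSO libraries and was not called (-0.42, 95% interval -0.73 to -0.11; edgeR adjusted p = 0.142). ZNF136, a KRAB repressor, had 3.07, 4.22, 4.02 and 2.86 CPM in UNC0642 libraries, against 5.82, 5.18, 4.38 and 7.40 CPM in DMSO libraries and 7.01, 5.06, 5.15 and 5.40 CPM in 0 h libraries. ZNF44 had 3.27, 1.75, 3.59 and 3.25 CPM in UNC0642 libraries, against 4.55, 5.42, 4.38 and 4.31 CPM in DMSO libraries and 4.23, 4.39, 4.10 and 3.86 CPM in 0 h libraries. For both genes the UNC0642 libraries lay below all others, narrowly so for ZNF136. ZNF136 was 1.62-fold lower in UNC0642 than in DMSO (-0.70 ± 0.16; edgeR adjusted p = 0.007) and ZNF44 1.56-fold lower (-0.64 ± 0.17; edgeR adjusted p = 0.0166).

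ZNF440 had 11.2, 12.2, 11.9 and 11.1 CPM in UNC0642 libraries, against 15.1, 16.3, 17.3 and 18.6 CPM in DMSO libraries and 14.7, 15.5, 16.8 and 16.2 CPM in 0 h libraries. The UNC0642 libraries were again the lowest, 1.45-fold below DMSO (-0.54 ± 0.08; edgeR adjusted p = 1.56e-05). ZNF791 (-0.36), ZNF490 (-0.34) and ZNF700 (-0.27) also fell, with adjusted p of 0.00474, 0.0189 and 0.0106 by edgeR. ZNF441, the lowest described gene at 0.398 FPKM over the 12 libraries, had 1.48, 1.26, 1.37 and 0.990 CPM in UNC0642 libraries, against 1.96, 1.58, 1.91 and 1.91 CPM in DMSO libraries and 2.66, 1.97, 2.09 and 1.54 CPM in 0 h libraries. Its UNC0642 libraries did not overlap the others, yet its difference from DMSO of -0.52 (95% interval -0.98 to -0.07) was not called. ZNF564 (-0.43), ZNF823 (-0.37) and ZNF627 (-0.24) were not called either, with intervals of -0.71 to -0.15, -0.62 to -0.12 and -0.43 to -0.06.

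**Figure D2:**
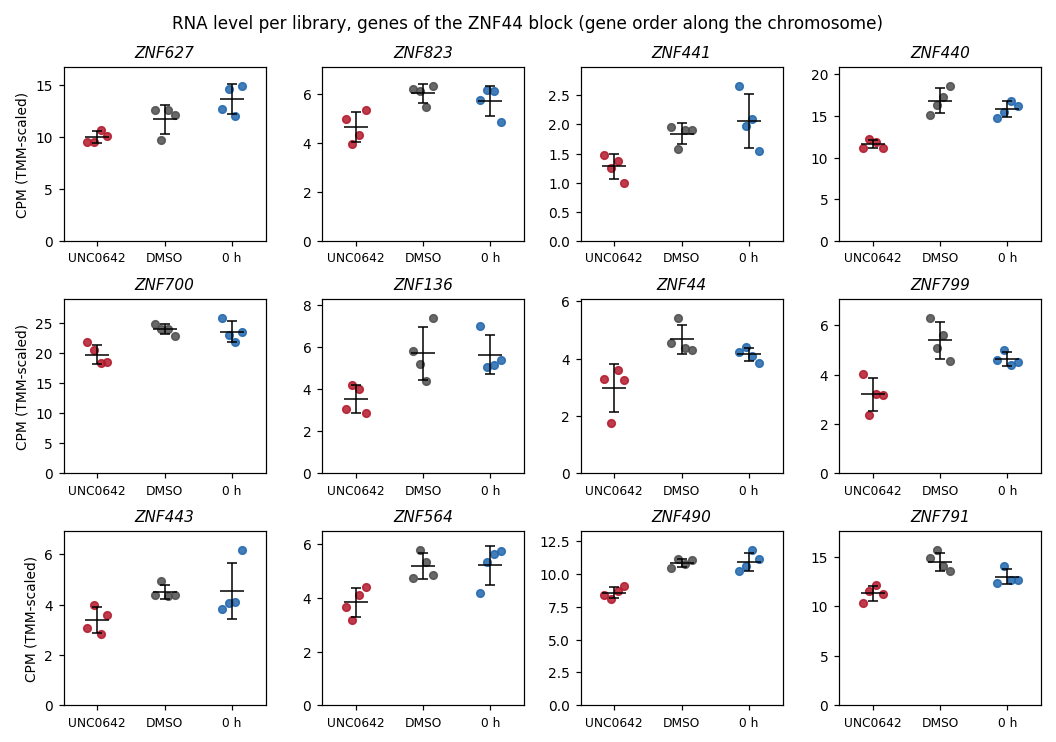
RNA level (CPM, TMM-scaled, linear axis from 0) of the 12 described genes of the ZNF44 block in each of the 12 libraries; points are libraries, and the bar and whiskers are the mean and SD of 4. The UNC0642 points lie below all DMSO points in 11 of the 12 panels, and those of ZNF627 overlap.

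Over both blocks the UNC0642 and DMSO libraries did not overlap in 18 of the 21 genes, all lower in UNC0642, against 5.42% of tested genes without overlap and lower and 5.05% without overlap and higher. Of the 18 genes with at least 1 CPM in all 12 libraries, 13 fell and 0 rose. Across the 21 genes, the log2 fold change had a Spearman rho of 0.66 with the mean log2 CPM, so that less abundant genes had the more negative values. The genes share the same libraries and low counts have the larger errors, so this is a description. ZNF426 and ZNF177, at the low end, reached 1 CPM in 0 and 1 of the UNC0642 libraries. They were included through the other groups, so the choice of genes can add to the relation, which was not computed without them. The rho was 0.09 with gene length and 0.02 with the order along the chromosome.

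Leaving out 1 library ended some of these calls. ZNF177 was lost without DMSO replicate 1 or 2 or UNC0642 replicate 1, 2 or 3 (adjusted p 0.0549 to 0.145), and ZNF490 without DMSO replicate 2 or 4 or UNC0642 replicate 1 or 2 (0.0528 to 0.06). ZNF44 was lost without replicate 2 of DMSO (0.0774) or of UNC0642 (0.0785). Without DMSO replicate 4, ZNF121 (0.0551), ZNF136 (0.0699) and ZNF426 (0.0554) were lost, and without UNC0642 replicate 3, ZNF700 (0.0554). Within the long-gap libraries (2 UNC0642 and 3 DMSO libraries) 7 of 21 genes were called lower with a median of -0.47, and within the short-gap libraries (2 UNC0642 and 1 DMSO) 1 of 21 with a median of -0.41, with all 21 values below 0 in each class. Without the libraries with COL1A2 above 1 CPM, which leaves 2 UNC0642 and 3 DMSO libraries, 7 of 21 were called lower with a median of -0.42. Calls over all genes fell as well, from 584 with all libraries to 271 within the long-gap libraries and 276 without the COL1A2 libraries. Over all 24 alternatives, ZNF177 lost its call in 10 and ZNF490 in 8, among them limma on log2(FPKM + 0.1) for both. The short-gap count takes the spread of its only DMSO library from the other libraries of the fit.

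UNC0642 recovery against 0 h gave 20 of 21 described genes lower and 0 higher, with a median of -0.44. Over all tested genes 47.0% were called (23.6% lower and 23.4% higher), and with library totals in place of TMM 15.4% were lower and 32.0% higher. The UNC0642 libraries also enter the comparison with DMSO, so the 2 results are not independent. ZNF426 was 3.10-fold lower (-1.63 ± 0.31; edgeR adjusted p = 6.61e-05), ZNF559 1.85-fold lower (-0.89 ± 0.11; edgeR adjusted p = 5.54e-08) and ZNF441 1.61-fold lower (-0.69 ± 0.23; edgeR adjusted p = 0.0148). ZNF823, at a schizophrenia-associated locus, was the 1 gene not called (-0.30, 95% interval -0.56 to -0.04; edgeR adjusted p = 0.0583). In 16 of 21 genes the groups did not overlap, all lower, against 20.1% of tested genes.

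Some of the calls against 0 h depended on the setting or on single libraries. ZNF791 lost its call in 18 of the 24 alternatives, among them DESeq2, the replicate block, library totals, both other filters and FPKM. ZNF699 lost its call in 14, among them DESeq2, limma-voom, the replicate block and library totals, and ZNF443 in 8, among them DESeq2 and library totals. Of left-out libraries, ZNF699 was lost without 0 h replicate 2, 3 or 4 or UNC0642 replicate 1, 3 or 4 (adjusted p 0.0596 to 0.139), and ZNF791 without 0 h replicate 2, 3 or 4 or UNC0642 replicate 1, 2 or 4 (0.0566 to 0.169). ZNF443 was lost without 0 h replicate 4, its highest library (0.233), or UNC0642 replicate 1 (0.0857) or 3 (0.107). ZNF441 was lost without 0 h replicate 1 (0.0808) or UNC0642 replicate 4 (0.0533), and ZNF177 without 0 h replicate 4 (0.0535) or UNC0642 replicate 1 (0.0567). ZNF44 was lost without replicate 2 of 0 h (0.053) or of UNC0642 (0.125), and ZNF564 without UNC0642 replicate 2 (0.0522). ZNF823 was called lower without 0 h replicate 4 (0.0285) or UNC0642 replicate 4 (0.0318). Calls over all genes numbered 5989 with all libraries, 4392 within long-gap libraries and 4038 within short-gap libraries. Within long-gap libraries 14 of 21 were called lower and within short-gap libraries 13, with 2 libraries of each group in either class. Leaving out the libraries with COL1A2 above 1 CPM gave 10, but it leaves 2 UNC0642 libraries and 1 0 h library, and the spread then comes from the other groups, with the lone library assumed to vary like them. Of the 8 tested markers of blood, fibroblasts and endothelium, 2 fell and 1 rose in this comparison. HBB (log2 fold change -1.79 ± 0.46) and HBA1 (-1.02 ± 0.30) fell, and COL1A1 rose (0.28 ± 0.09). Their part in the zinc-finger results was not tested.

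DMSO recovery against 0 h gave 1 of 21 described genes called, with a median of -0.01, while 44.1% of tested genes were called (21.7% lower and 22.4% higher, or 14.4% and 30.0% with library totals in place of TMM). ZNF559 was the gene called, 1.26-fold lower after DMSO recovery (-0.34 ± 0.11; edgeR adjusted p = 0.00978). Its call was lost in 4 alternatives: without 0 h replicate 2, its highest library (-0.23; adjusted p = 0.0906), with log2(FPKM + 0.1) in limma (-0.26; adjusted p = 0.0543), without the COL1A2 libraries (-0.13; adjusted p = 0.638) and within short-gap libraries (-0.29; adjusted p = 0.296). ZNF791 was called higher in 3, with library totals (0.21; adjusted p = 0.0333), log2(FPKM + 1) (0.19; adjusted p = 0.0189) and log2(FPKM + 0.1) (0.22; adjusted p = 0.0196). ZNF627 was called lower without 0 h replicate 3 (-0.26; adjusted p = 0.0354). The other 20 values ran from -0.30 (ZNF426, 95% interval -0.82 to 0.23) to 0.22 (ZNF799, -0.07 to 0.51). For the abundant genes the intervals were narrow, at -0.12 to 0.05 for ZNF317 and -0.06 to 0.12 for ZNF562. Within long-gap libraries (3 DMSO and 2 0 h libraries) 1 of 21 was called, and within short-gap libraries (1 DMSO and 2 0 h libraries) 0. Without the COL1A2 libraries, with 3 DMSO libraries and 1 0 h library, it was also 0. In these last 2 settings 1 group is a single library, assumed to vary like the others, so a count of 0 says little. Of the 8 tested markers of blood, fibroblasts and endothelium, 6 fell and 2 rose after DMSO recovery, with log2 fold changes from -2.53 to 1.41. COL1A2 fell, at 0.475 ± 0.918 CPM in DMSO and 2.80 ± 2.89 CPM in 0 h libraries (SD, n = 4 each). Scaled by library totals, it was scattered, from 0 to 6.646 CPM in 0 h libraries and from 0 to 1.867 CPM in DMSO libraries. HBB (-1.72 ± 0.45) and HBA1 (-1.36 ± 0.32) also fell, and their part in the zinc-finger results was not tested.

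**Figure D3:**
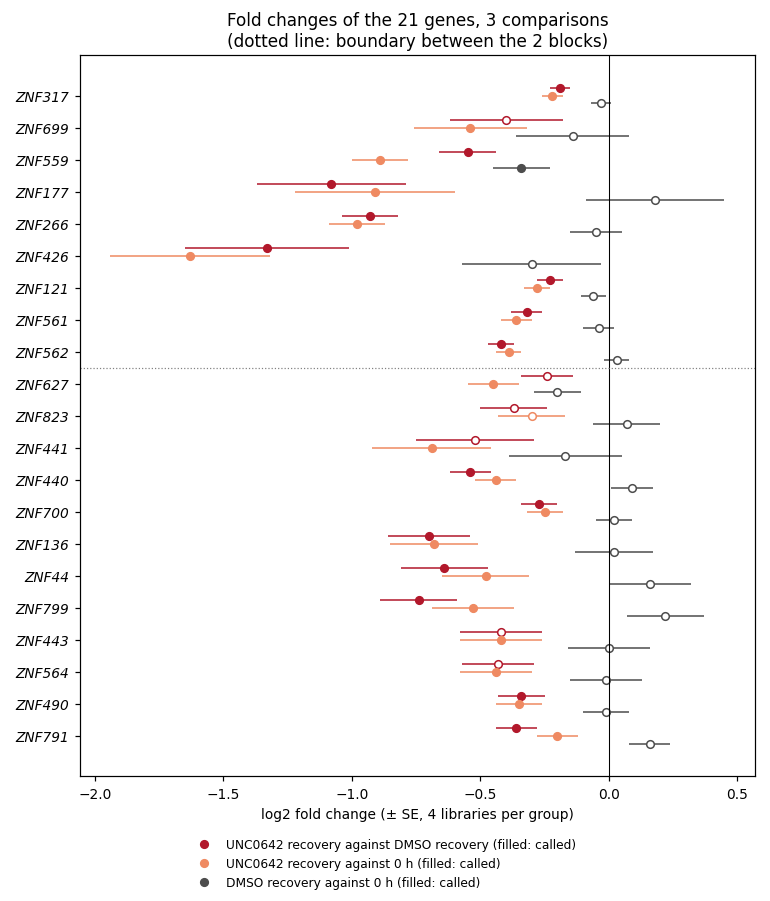
Log2 fold change with its SE for the 21 described genes in gene order (rows, the ZNF266 block above the dotted line) in the 3 comparisons; filled circles are called, open circles are not. Both comparisons with UNC0642 lie left of 0 for every gene, and ZNF559 is the filled circle of DMSO against 0 h.

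The 14 listed genes that were not described were at or near 0. ZNF560 and ZNF625 had 0 counts in every library, and the highest count of the others in any library was 21, for ZNF439. ZNF439 and ZNF709 had enough counts to be tested, and UNC0642 against DMSO gave -0.57 ± 0.37 and -0.01 ± 0.48, neither of them called. The rest, ZNF846, ZNF491, ZNF69, ZNF763, ZNF433, ZNF878, ZNF844, ZNF20, ZNF563 and ZNF442, had at most 10 counts in a library and were not tested.

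Set beside other genes for UNC0642 against DMSO, the listed genes had 15 of 23 tested members lower (65.2%, median -0.42) and the other ZNF genes of chromosome 19 had 56 of 135 lower and 0 higher (41.5%, median -0.39). ZNF genes of other chromosomes had 17 of 208 lower and 1 higher, with a median of -0.03. The other genes of 19p13.2, which lie around and between the zinc-finger genes, had 1 of 68 lower and 2 higher, with a median of -0.01. Those were KANK2 (-0.19 ± 0.04) and, higher, the early response genes JUNB (0.20 ± 0.05) and IER2 (0.13 ± 0.03). Over all tested genes 2.53% were lower and 2.06% higher. The differences between these lists were not tested. In DMSO against 0 h the other ZNF genes of chromosome 19 had 14 lower and 6 higher of 135, and the other genes of 19p13.2 had 24 lower and 12 higher of 68, led by NFIX (0.55 ± 0.04), a transcription factor, and PRDX2 (-0.37 ± 0.03), a peroxidase. In UNC0642 against 0 h those lists had 76 lower and 2 higher of 135, and 26 lower and 10 higher of 68. Over all tested genes 21.7% were lower and 22.4% higher in DMSO against 0 h, and 23.6% and 23.4% in UNC0642 against 0 h.

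**Figure D4:**
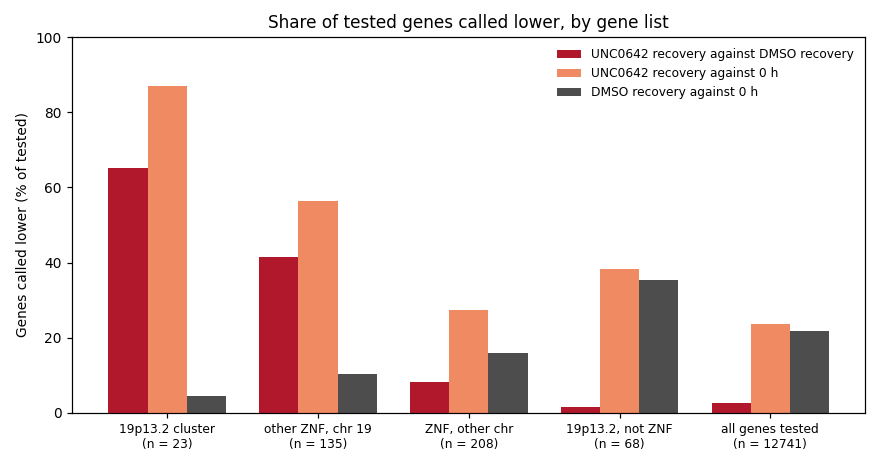
Share of tested genes called lower (percent, linear axis from 0) in the 19p13.2 cluster, 3 lists of other genes and all genes tested, for the 3 comparisons; n is the number tested. For UNC0642 against DMSO the bars are 65.2% for the cluster, 41.5% for other ZNF genes of chromosome 19, 8.17% for ZNF genes elsewhere, 1.47% for other genes of 19p13.2 and 2.53% for all genes.

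For UNC0642 against DMSO, 2.53% of all tested genes were lower and 2.06% higher. The genes of the KRAB corepressor and of lysine 9 methylation had 3 of 24 lower and 0 higher, with a median of -0.02. They were ZNF274 (-0.91 ± 0.12), a zinc-finger protein that recruits SETDB1 and is itself a ZNF gene of chromosome 19, ATF7IP (-0.25 ± 0.06), the partner of SETDB1, and ATRX (-0.19 ± 0.05), a chromatin remodeller. TRIM28 averaged 1236 ± 26.5 CPM in UNC0642 and 1239 ± 16.8 CPM in DMSO libraries (SD, n = 4 each), and SETDB1 averaged 38.6 ± 2.81 CPM in UNC0642 and 40.4 ± 2.69 CPM in DMSO libraries. Of the inhibitor's targets, EHMT1 averaged 84.4 ± 2.59 CPM in UNC0642 and 84.5 ± 4.29 CPM in DMSO libraries (log2 fold change 0.00 ± 0.04). EHMT2 averaged 124.2 ± 1.44 CPM in UNC0642 and 125.1 ± 4.78 CPM in DMSO libraries (-0.01 ± 0.03). None of these 4 was called. Against 0 h, TRIM28 fell by 0.13 on the log2 scale in both UNC0642 and DMSO libraries, SETDB1 by 0.28 in UNC0642 and 0.21 in DMSO libraries, and EHMT1 by 0.13 in both, while EHMT2 was not called in either (-0.04 in UNC0642 and -0.03 in DMSO libraries). The list as a whole had 10 lower and 1 higher of 24 in UNC0642 against 0 h, and 9 lower and 3 higher in DMSO against 0 h. Of all tested genes, 47.0% were called in UNC0642 against 0 h (23.6% lower and 23.4% higher). In DMSO against 0 h it was 44.1% (21.7% lower and 22.4% higher), so changes against 0 h were common among all genes.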

How the data were processed

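RNA was isolated with Trizol and library preparation was done commercially, per the labels' protocols. RSEM 1.2.4, Bowtie and the build hg18 are named in the submitters' processing notes, and strand handling is not given in the sources used here. The deposited tables hold gene-level expected counts, which RSEM estimates and which can be fractional, and FPKM, per the file headers. Over the described genes 42.1% of values were not whole (tolerance 0.005).

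Groups and replicate numbers came from the sample titles. Expected counts were rounded, filtered with filterByExpr (12741 of 18969 genes kept), scaled with TMM and tested in 1 fit of all 12 libraries with edgeR 4.0.16 (quasi-likelihood F-test, two-sided, R 4.3.3), with calls at 0.05 after Benjamini-Hochberg adjustment over all genes tested. The biological coefficient of variation was 3.44%. Intervals are the estimate plus and minus the normal 95% multiple of its SE. The number of counts behind a gene limits its precision. Levels between genes are compared in FPKM. DESeq2 1.42.0, limma 3.58.1 and the other alternatives are in the closing section. The edgeR step was also run on simulated counts with the same spread for all genes, so it says little about genes with few counts.

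The members and gene lists were chosen with earlier results of these data known. All genes with at least 1 CPM in at least 4 libraries are described. Values in every library are given for ZNF266, the 8 called genes with the largest change for UNC0642 against DMSO, called genes of the opposite direction (0 found), up to 4 called genes for DMSO against 0 h, the 3 highest and the lowest by FPKM, ZNF177 and ZNF559. Other lists name up to 4 members of smallest p, given in part, and always EHMT1, EHMT2, TRIM28 and SETDB1. Gene order and promoters are from RefSeq and transcripts from GENCODE, both on GRCh38, not the build of the counts. All 35 members matched by symbol. No replicate was treated as a duplicate, since counts of the 18 pairs within groups gave a chi-square of 2.04 to 3.56 times its degrees of freedom.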

Additional observations from a re-analysis of the deposited data

Results flagged for a closer look

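Within groups of 4 libraries, 3 values stood far from the other libraries of their group, by Dixon's test at the 95% level. ZNF441 had 1.58 CPM in DMSO replicate 2, below 1.96, 1.91 and 1.91 CPM. ZNF443 had 4.93 CPM in DMSO replicate 2, above 4.39, 4.33 and 4.36 CPM, and 6.17 CPM in 0 h replicate 4, above 3.81, 4.05 and 4.10 CPM. There were 63 groups examined, and chance gives such a value in about 1 in 20 groups.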

How the results depend on the processing

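The count of described genes called for UNC0642 against DMSO was 15 and stayed within 1.5 times of it, with all 21 values below 0, under RLE factors, library totals, no filter or a stricter one, only the 8 libraries compared, DESeq2, limma-voom, log2 FPKM with a pseudocount of 1 or 0.1, effective length offsets, length-gap class as a covariate and unrounded counts. It was 7 without libraries with COL1A2 above 1 CPM and 7 within long-gap and 1 within short-gap libraries, settings that use fewer libraries. Calls over all genes also fell, from 584 to 276 without those COL1A2 libraries and to 271 within long-gap libraries. Split by class is an alternative added after the data were seen. For UNC0642 against 0 h (20) the count was 10 without those COL1A2 libraries, which leaves 1 0 h library, and 13 within short-gap libraries. For DMSO against 0 h (1) it was 2 with library totals and 2 with log2(FPKM + 1), where ZNF791 was called higher and the median of the genes turned to 0.05 and 0.03. With log2(FPKM + 0.1) it was 1, but ZNF559 was lost, ZNF791 was called higher and the median was 0.05. It was 0 without the COL1A2 libraries (1 0 h library left) and 0 within short-gap libraries (1 DMSO library). The cause of the changes with scaling was not tested. Leaving out each library in turn gave 11 to 15, 16 to 19 and 0 to 2 calls in these comparisons. With replicate number as a block, 15, 18 and 1 genes were called. With each gene's group mean removed, log CPM of same-numbered libraries of different groups correlated between -0.103 and 0.045 over 12 pairs. Pairs of different number ran from -0.131 to 0.117. Whether libraries of the same number were handled together was not tested. Of single genes, 48 of 504 values for UNC0642 against DMSO and 65 of 504 against 0 h lost their call and none changed sign. For DMSO against 0 h 66 of 504 values changed sign, none of them called. Genes with fewest counts, ZNF426, ZNF177 and ZNF441, have the widest errors.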
